A study of Mus musculus with 2 samples.

Results

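The 5 somatostatin receptor genes, Sstr1, Sstr2, Sstr3, Sstr4 and Sstr5, were followed in bulk RNA-seq of primary mouse pituitary cells. They were found by symbol among the 47069 genes listed, and all 5 had a row in the count table. Pituitaries of C57BL/6 female mice aged 10 to 12 weeks, cycling at random, were dissociated with the enzymes collagenase and pancreatine, and each sample held 500000 to 700000 cells pooled from 5 glands. The cells of 1 sample were stored in RNA-Best, the stabilization buffer developed in the study, and those of the other in RNAlater, an established RNA stabilizer used as the reference. No hormone, drug or transgene distinguished the samples. Each group had 1 library, so that stabilizer, pool of glands and library preparation cannot be told apart, no test between the stabilizers was run, and every interval is a 95% interval that covers counting error only.

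Somatostatin is a hypothalamic peptide that reaches the anterior pituitary through the portal blood and restrains the secretion of growth hormone and thyrotropin. Its receptors are G protein-coupled receptors that signal through inhibitory G proteins. They lower cyclic AMP, open inwardly rectifying potassium channels and reduce calcium entry, which together quiet the secreting cell. Subtypes 2 and 5 are the targets of the somatostatin analogues given for growth hormone excess, subtype 3 is known for its place on the primary cilium of neurons, and cortistatin is a related peptide that binds the same receptors.

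The receptors are close relatives, and their coding sequences show how far reads can tell them apart. Across the 10 pairs, coding identity lay between 59.7% (Sstr2 and Sstr4) and 69.8% (Sstr1 and Sstr4), and Sstr3 and Sstr5 shared 69.2%. A 51-base coding stretch is given here, since 51 bases was the read length. It is the stretch of Sstr1 with the fewest differences, summed over its best match in each other receptor. Lower case marks the 34 bases that all 5 genes have in common, and capitals the positions where at least 1 gene differs. The stretches lie at chr12:58213532-58213582 (Sstr1, plus strand), chr11:113625163-113625213 (Sstr2, plus), chr15:78539559-78539609 (Sstr3, minus), chr2:148396365-148396415 (Sstr4, plus) and chr17:25491324-25491374 (Sstr5, minus) of GRCm38, all in coding exons.
Sstr1: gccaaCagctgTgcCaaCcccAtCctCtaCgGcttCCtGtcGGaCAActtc
Sstr2: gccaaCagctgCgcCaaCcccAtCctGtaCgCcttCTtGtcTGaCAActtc
Sstr3: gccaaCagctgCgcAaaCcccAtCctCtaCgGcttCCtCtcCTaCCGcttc
Sstr4: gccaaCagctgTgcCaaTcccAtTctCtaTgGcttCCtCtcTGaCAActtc
Sstr5: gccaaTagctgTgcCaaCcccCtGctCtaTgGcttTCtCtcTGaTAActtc

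In this stretch each of the other receptors differed from Sstr1 at 5 to 8 bases. The closest pair over a read length was Sstr3 and Sstr5, which shared a run of 41 bases and differed at 2 of 51 bases in a stretch at chr15:78539857-78539907 and chr17:25491589-25491639, both on the minus strand. Capitals mark the bases that differ.
Sstr3: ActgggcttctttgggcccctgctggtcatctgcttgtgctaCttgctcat
Sstr5: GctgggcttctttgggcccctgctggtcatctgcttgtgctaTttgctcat

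Of all 51-base windows in the longest transcript of each receptor, 0 matched a transcript of another gene on either strand, among 141767 annotated transcripts. The deposited counts of all 5 receptors were whole numbers in both libraries, in a table where 35.4% of values above 0 for RNA-Best and 34.9% for RNAlater were fractions. No other annotated gene shared exonic bases with a receptor. The body of Slc39a11, on the opposite strand, spans all 6687 bases of Sstr2, without a shared exon.

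The 5 genes lie on 5 chromosomes. In GRCm38, Sstr1 (ENSMUSG00000035431.4) occupies chr12:58211772-58214444, Sstr2 (ENSMUSG00000047904.6) chr11:113619342-113626028, Sstr3 (ENSMUSG00000044933.2) chr15:78537008-78544685, Sstr4 (ENSMUSG00000037014.4) chr2:148395344-148396767 and Sstr5 (ENSMUSG00000050824.11) chr17:25489875-25497288. In the longest transcript of each gene the coding sequence lay in 1 exon. The coding sequences were of similar size, 1086 to 1284 bases, whereas the transcripts ranged from 1424 bases (Sstr4) to 4275 bases (Sstr3). The excess length of Sstr3 lay mainly after the coding sequence, where 2254 bases follow, compared with 142 to 1293 bases in the other 4 genes.

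Sstr2 is the member with 2 annotated coding ends, and gene counts sum over both. In one form the coding exon is read through for a further 114 coding bases, and in the other it is spliced after the 993 bases they share and gains 45 coding bases from a downstream exon. The forms are shown from the last 30 shared bases (lower case) into their own ends (capitals), from transcripts at chr11:113619342-113626028 and chr11:113619476-113625895, plus strand. The levels of the forms were not separated by the gene counts.
Sstr2, read-through end: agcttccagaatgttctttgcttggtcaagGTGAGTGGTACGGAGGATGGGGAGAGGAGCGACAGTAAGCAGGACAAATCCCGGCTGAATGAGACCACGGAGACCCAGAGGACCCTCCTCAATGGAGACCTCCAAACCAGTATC
Sstr2, spliced end: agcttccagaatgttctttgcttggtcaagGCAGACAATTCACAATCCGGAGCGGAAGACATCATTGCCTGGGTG

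Gene counts summed to 53915047 for RNA-Best and 44917492 for RNAlater, and each count was scaled to a total of 1000000 counts (CPM). The labelled tissue was checked on 7 hormone genes of the anterior pituitary, which together held 239085 CPM in RNAlater and 307051 CPM in RNA-Best, with none below 31.6 CPM. Other cells of the gland were also represented. The summed level of 5 endothelial markers was 313 CPM in RNA-Best against 618 CPM in RNAlater, and that of 5 pericyte and fibroblast markers 480 and 601 CPM. For 5 posterior lobe glial markers it was 81.5 and 145 CPM, and for 5 stem and folliculostellate markers 149 and 228 CPM. Scaled by total counts, each of these 20 markers was lower in RNA-Best, as were 67.0% of all genes whose mean reached 1 CPM. Macrophage markers were mixed, with 2 of 5 lower in RNA-Best, and summed to 141 and 124 CPM. Neuronal markers summed to 66.2 and 72.9 CPM, with 3 of the 4 that reached a mean of 1 CPM lower. Erythroid markers summed to 3200 and 1130 CPM, with 0 of 5 lower. The part of these differences in the receptor values was not tested. In bulk RNA, fewer cells of a type and less RNA per cell cannot be told apart. Log2 ratios of RNA-Best over RNAlater also fell with transcript length, from a median of 0.29 up to 1 kb to -0.90 over 10 kb. The markers were not compared with genes of like length, so no loss of a cell type is read from them.

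Transcripts of 4 of the 5 receptors reached a mean of 1 CPM. Sstr3 had the most reads, with 762 in RNA-Best and 863 in RNAlater, or 14.1 CPM (interval 13.1 to 15.2) and 19.2 CPM (18.0 to 20.5). Sstr1 had 493 and 386 reads, or 9.14 CPM (8.35 to 9.99) and 8.59 CPM (7.76 to 9.50). Sstr5 had 432 and 398 reads, or 8.01 CPM (7.27 to 8.81) and 8.86 CPM (8.01 to 9.78). The intervals of the 2 libraries overlapped for Sstr1 and Sstr5 and lay apart for Sstr3, which was lower in RNA-Best. Sstr2 had 108 reads in each library, or 2.0 CPM (1.64 to 2.42) and 2.40 CPM (1.97 to 2.90).

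Sstr4 was near the limit of detection. It had 3 reads in RNA-Best and 10 in RNAlater, or 0.0556 CPM (0.0115 to 0.163) and 0.223 CPM (0.107 to 0.409). The ratio of its CPM values was 0.25, with a counting interval from 0.0442 to 0.971. Under the other 3 scalings described in the following paragraphs this interval included 1, so that no direction was read from it. Together the 5 genes held 1798 reads in RNA-Best and 1765 in RNAlater, which is 33.3 and 39.3 CPM.

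**Figure D1:**
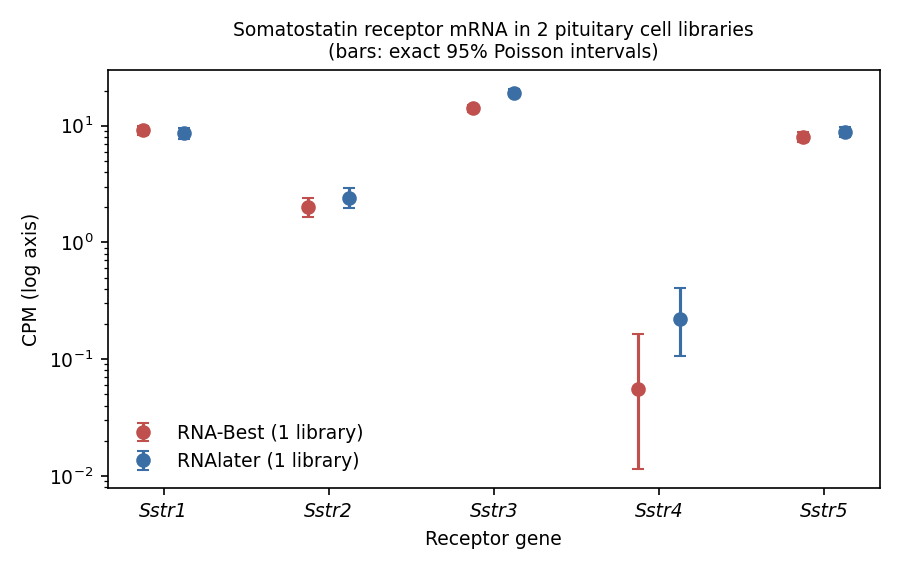
CPM of each somatostatin receptor gene (log axis) in the RNA-Best and the RNAlater library, with exact 95% Poisson intervals for the count. Sstr3 is highest at 14.1 and 19.2 CPM, Sstr1 and Sstr5 lie between 8.01 and 9.14 CPM, Sstr2 at 2.0 and 2.40 CPM and Sstr4 at 0.0556 and 0.223 CPM.

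Levels of different genes were compared per kb of the longest annotated transcript, because a longer transcript yields more reads. On this scale Sstr1 stood highest in RNA-Best, at 4.54 CPM per kb, followed by Sstr3 at 3.31, Sstr5 at 2.93, Sstr2 at 0.935 and Sstr4 at 0.0391 CPM per kb. In RNAlater Sstr3 stood at 4.49 CPM per kb, Sstr1 at 4.27, Sstr5 at 3.24, Sstr2 at 1.12 and Sstr4 at 0.156 CPM per kb. The leading receptor thus differed between the libraries, and in RNAlater Sstr3 and Sstr1 did not differ beyond counting error, with a ratio of levels of 1.05 (0.933 to 1.19). In RNA-Best the level of Sstr1 was 1.37 times that of Sstr3 (1.22 to 1.54), and that of Sstr3 1.13 times that of Sstr5 (1.0 to 1.27).

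The order among these 3 genes rested on the length chosen for each. With the coding sequence as the length, Sstr3 led in both libraries at 11.01 CPM per kb in RNA-Best and 15.0 in RNAlater, and Sstr1 and Sstr5 did not differ beyond counting error in either. The identifiers of Sstr3 and Sstr5 carry an older version in the table than in the annotation used here, so the exons counted may differ from those measured. The lower end of the order was the same throughout: with each of 4 lengths and with none, in both libraries, Sstr2 was the fourth and Sstr4 the fifth. By the longest transcript the level of Sstr5 was 3.14 times that of Sstr2 (2.53 to 3.91) in RNA-Best and 2.89 times (2.33 to 3.61) in RNAlater. That of Sstr2 was 23.9 times that of Sstr4 (7.97 to 118) and 7.18 times (3.76 to 15.4).

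As a share of the summed level per kb of all 5 genes, Sstr1 held 38.6% (36.5% to 40.7%) of the RNA-Best sum and 32.1% (29.9% to 34.3%) of the RNAlater sum. Sstr3 held 28.1% (26.7% to 29.6%) and 33.8% (32.3% to 35.3%), Sstr5 24.9% (23.2% to 26.8%) and 24.4% (22.6% to 26.3%), and Sstr2 7.95% (6.62% to 9.45%) and 8.45% (7.04% to 10.0%). Sstr4 held 0.333% (0.0688% to 0.966%) and 1.18% (0.568% to 2.14%). Only the shares of Sstr1 and Sstr3 had intervals that lay apart between the libraries, with Sstr1 the larger in RNA-Best and Sstr3 the larger in RNAlater. These share intervals held the counts of the other genes fixed and so leave out part of the counting error.

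**Figure D2:**
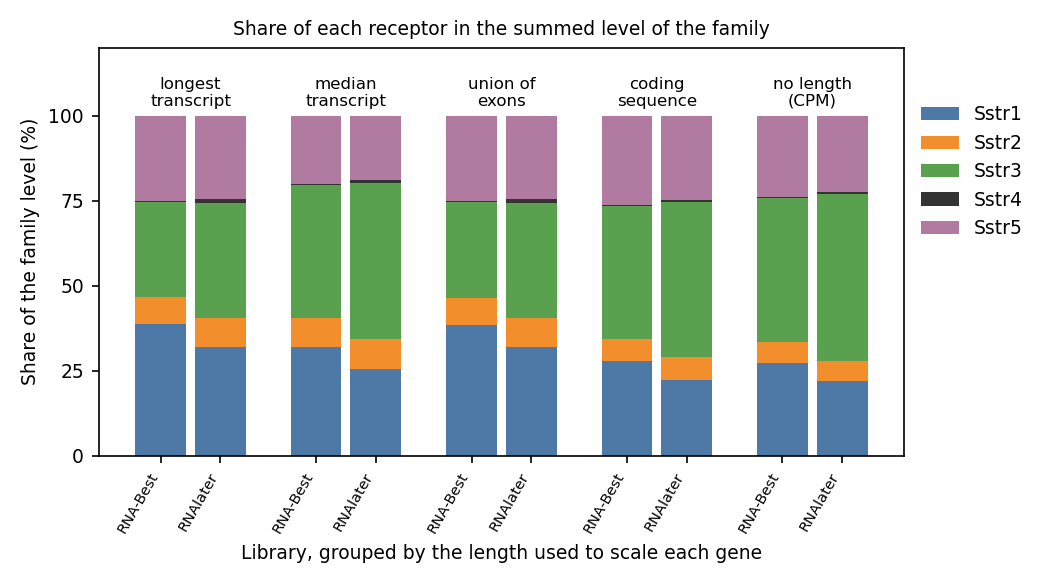
Share (%) of each receptor in the summed level of the family, for the RNA-Best and the RNAlater library, with levels scaled by the longest transcript, the median transcript length, the union of exons, the coding sequence or no length. The share of Sstr3 in RNAlater is 33.8% by the longest transcript and 45.6% by the coding sequence, and Sstr2 and Sstr4 are the smallest shares in every bar.

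The comparison of the stabilizers used log2 ratios, RNA-Best over RNAlater, with 0.5 CPM added to both levels, in the 16504 genes whose mean reached 1 CPM. The ratio was 0.08 for Sstr1 (interval -0.11 to 0.29), -0.21 for Sstr2 (-0.66 to 0.13), -0.43 for Sstr3 (-0.59 to -0.30) and -0.14 for Sstr5 (-0.34 to 0.05). The interval lay wholly below 0 for 1 of the 4 receptors, Sstr3, as it did for 51.2% of all genes tested, and wholly above 0 for none, against 20.2% of all genes. None of the 4 passed 2-fold, a size that 5.27% of all genes reached. Ratios below 0 were found for 3 of the 4 receptors and for 67.0% of all genes.

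Without the added 0.5 CPM, the level in RNA-Best differed from that in RNAlater by -26.4% for Sstr3, -16.7% for Sstr2, -9.57% for Sstr5 and 6.41% for Sstr1. The median log2 ratio of the 4 receptors was -0.18, equal to the -0.18 of all genes. Among genes of like level, meaning a mean within 2-fold of that of the receptor, the central 90% of log2 ratios ran from -1.01 to 0.47 around Sstr3 (5951 genes) and from -0.92 to 0.50 around Sstr2 (3318 genes). All 4 receptors fell inside the range of their own level.

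The centre of the ratios depended on scaling, and Prl alone took 172302 CPM in RNAlater against 235654 CPM in RNA-Best. Against the median of -0.18 for all genes under total counts, the median was -0.01 with TMM factors, -0.0030 with DESeq2 size factors and -0.06 with totals that left out Prl and Gh. The ratio of Sstr3 stayed below 0, with an interval that did not include 0, at -0.26 (-0.41 to -0.13), -0.25 (-0.40 to -0.12) and -0.31 (-0.46 to -0.17). That of Sstr1 became 0.25 (0.07 to 0.46), 0.26 (0.08 to 0.47) and 0.21 (0.02 to 0.41), so that its interval lay above 0 under each of the 3. Under total counts the interval lay above 0 for 20.2% of all genes and below 0 for 51.2%. These shares were not counted under the other 3 scalings, so neither gene is read as standing out. Sstr2 kept its sign with intervals that included 0, and Sstr5 changed sign, to 0.03 with TMM and 0.04 with DESeq2 size factors, with intervals that included 0.

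Ratios between receptors within a library are free of scaling. The ratio of Sstr1 to Sstr3 reads was 0.647 in RNA-Best and 0.447 in RNAlater, a 1.45-fold difference (1.22 to 1.71). The ratio of Sstr3 to Sstr5 reads was 1.76 and 2.17, a quotient of 0.813 (0.686 to 0.965). Of the 6 pairs of the 4 receptors, these 2 had an interval that did not include 1, and both hold Sstr3. For Sstr2 against Sstr1 and Sstr5 the interval of the quotient of Sstr1 to Sstr2 was 0.937 to 1.74 and that of Sstr2 to Sstr5 was 0.675 to 1.26. The summed counts of all 5 receptors gave a log2 ratio that does depend on scaling. It was -0.24 (-0.33 to -0.14) under total counts and -0.11 (-0.20 to -0.01) without Prl and Gh, while the interval included 0 with TMM at -0.06 (-0.16 to 0.03) and with DESeq2 size factors at -0.05 (-0.15 to 0.04). Under total counts, the sum without Sstr3, a choice made after its value was seen, gave -0.06 (-0.19 to 0.07).

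Ratios were also read by transcript length, since the median of all genes ran from 0.29 for transcripts of up to 1 kb to -0.90 for those over 10 kb. Sstr3, with 4275 bases, lay 0.03 below the median of -0.40 of the 3464 genes of 4 to 6 kb, and above 46.2% of them. Sstr1, Sstr2 and Sstr5 are 2014 to 2733 bases long and share a class of 3111 genes with a median of -0.09. Sstr5 lay above 43.2% of that class and Sstr2 above 32.5%. Sstr1 was the farthest from its class, 0.17 above the median and above 74.1% of its genes, and the interval of its ratio reached the class median. At 2014 bases it stood near the edge of the class of 1 to 2 kb, whose median was 0.07. Whether length accounts for the lower Sstr3 level in RNA-Best was not tested.

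**Figure D3:**
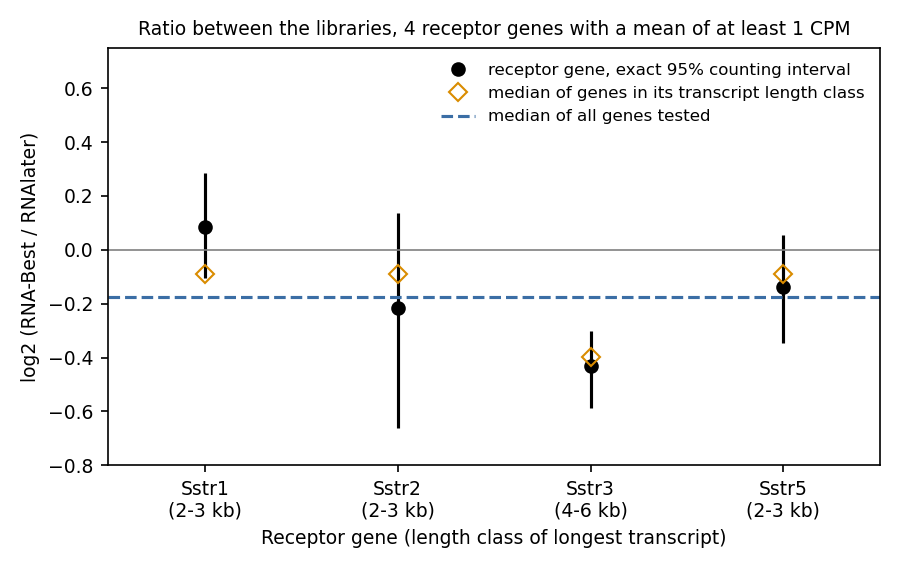
Log2 ratio, RNA-Best over RNAlater, of the 4 receptor genes whose mean reached 1 CPM (dots, with exact 95% counting intervals), beside the median of all genes tested (dashed line) and the median of genes in the length class of each (diamonds). Only the interval of Sstr3, -0.59 to -0.30, lies wholly below 0, and the diamond of each gene lies within its interval.

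The peptides that act on these receptors were at or near 0. Sst, which encodes somatostatin, had 0 reads in both libraries, which allows up to 0.0556 CPM and 0.0668 CPM, respectively. Cort, which encodes cortistatin, had 1 read in RNA-Best and 3 in RNAlater.

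Among 33 genes of hormone and neuropeptide receptors with a row in the table, ordered by mean CPM per kb over both libraries, Sstr1 ranked 4, Sstr3 6, Sstr5 7, Sstr2 11 and Sstr4 24. Ghrhr, the receptor of growth hormone-releasing hormone, which opposes somatostatin, led at 23.8 CPM per kb in RNA-Best and 35.6 in RNAlater. In RNAlater alone Sstr3 ranked 4 and Sstr1 6, while Sstr5 and Sstr2 had the same rank in both libraries. With the somatostatin receptors themselves left out of the search, and by distance between the log2 levels of both libraries, the receptor most like Sstr1, Sstr3 and Sstr5 was in each case Crhr1, the corticotropin-releasing hormone receptor, at 3.88 and 4.32 CPM per kb. After Crhr1 came, outside the family, Drd2, the dopamine receptor of lactotropes, for Sstr1 and Sstr3, at 7.29 and 8.13 CPM per kb, and Adcyap1r1, the receptor of the peptide PACAP, for Sstr5, at 1.36 and 2.37. Sstr2 was nearest to Mchr1, the melanin-concentrating hormone receptor (0.898 and 0.987), and to Oxtr, the oxytocin receptor (1.03 and 1.36). With 2 libraries, such likeness is little more than a like level.

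**Figure D4:**
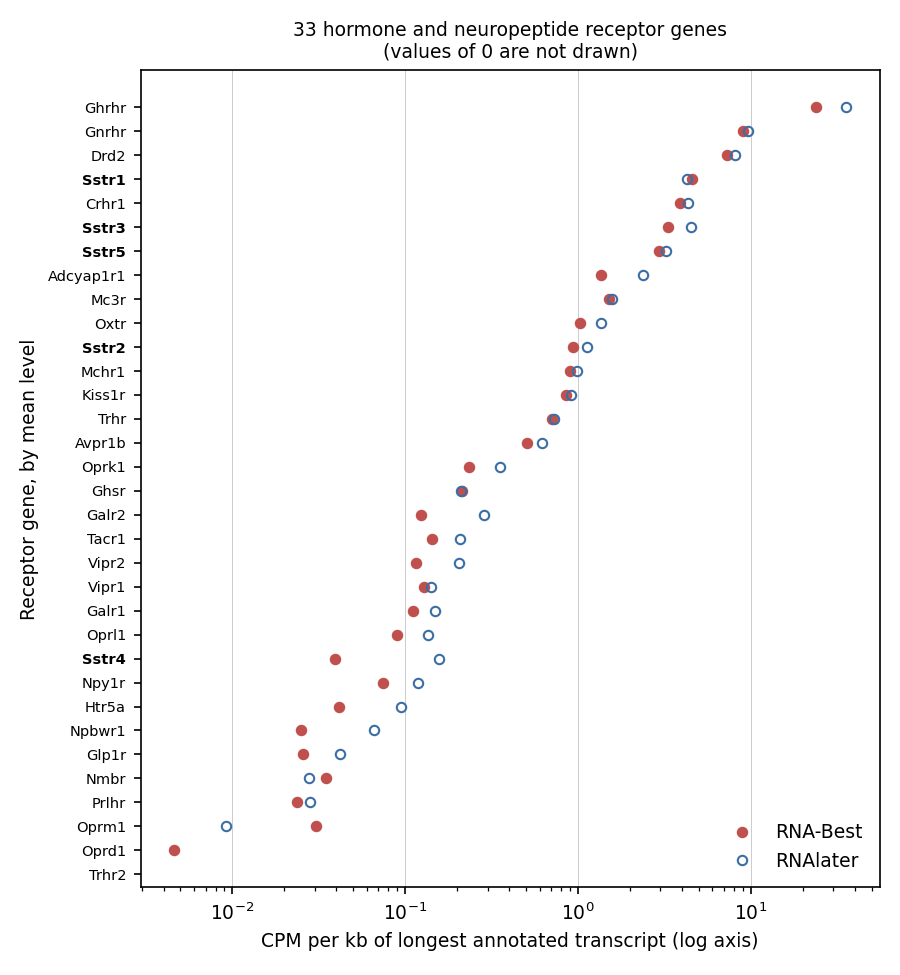
Level of 33 hormone and neuropeptide receptor genes in CPM per kb of the longest annotated transcript (log axis), for RNA-Best (filled) and RNAlater (open), ordered by mean level, with the somatostatin receptors in bold. Sstr1, Sstr3 and Sstr5 lie among the 7 highest, between 2.93 and 4.54 CPM per kb, and Sstr4 lies at 0.0391 and 0.156.

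All 12 of the other receptor genes that reached 1 CPM had a ratio below 0, where 67.0% of all genes did, and 7 of the 12 changed sign under at least 1 other scaling. The highest was Trhr, the thyrotropin-releasing hormone receptor, at -0.03 (-0.40 to 0.33), and among close relatives of the family Kiss1r, the kisspeptin receptor, at -0.09 (-0.43 to 0.23), both with another sign under all 3 other scalings. The lowest was Adcyap1r1 at -0.76 (-0.97 to -0.62), and among the close relatives the kappa opioid receptor Oprk1 at -0.43 (-1.11 to -0.08). Ghrhr stood at -0.58 (-0.65 to -0.51), lower than all 4 receptors, outside the intervals of Sstr1 and Sstr5 and inside those of Sstr2 and Sstr3, and its counts were partly fractions.

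Around the receptors, 12 lists with 75 genes, of which 74 had a row, covered ligands, other receptors, G proteins, effectors, regulators and hormones. Of the 55 genes that reached 1 CPM, 48 had a ratio below 0 and 7 above, where 67.0% of all genes lay below 0, and 6 were at least 2-fold lower in RNA-Best, where 4.99% of all genes were. Their median transcript was 4.4 kb long. Of all genes of 4 to 6 kb, 88.6% were below 0 and 5.66% at least 2-fold lower. Under the other 3 scalings 39 to 42 of the same 55 genes were below 0, where 50.4% to 55.5% of all genes were, and 3 listed genes in place of 6 were at least 2-fold lower, where 2.56% to 3.47% of all genes were.

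The inhibitory G protein alpha subunits, which carry the receptor signal, were all measured, with 4 of 5 below 0, where 67.0% of all genes were. Gnai2 was the most abundant, at 117 CPM per kb in RNA-Best and 138 in RNAlater, with a log2 ratio of -0.23 (-0.26 to -0.20) from counts that hold fractions. Gnai1 stood highest at 0.11 (-0.05 to 0.27), and Gnao1, the form abundant in neurons and endocrine cells, lowest at -0.69 (-0.75 to -0.63). The beta subunits were mixed, with 3 of 5 below 0 and 2 of 5 under the other scalings. Gnb5 was highest at 0.31 (0.22 to 0.42), Gnb4 lowest at -0.52 (-0.75 to -0.36) and Gnb2 the most abundant at 0.13 (0.10 to 0.17).

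The adenylyl cyclases make cyclic AMP, and some of them are inhibited by these G proteins. Of the 9 genes tested, 8 were below 0, with a list median of -0.72 against -0.18 for all genes. Their median transcript length was 5.95 kb, and the length classes on either side, 4 to 6 kb and 6 to 10 kb, had medians of -0.40 and -0.65, with 88.6% and 95.2% of genes below 0. Adcy6 was both the most abundant and the lowest, with 3556 reads in RNA-Best and 7127 in RNAlater, 66.0 and 159 CPM, and a ratio of -1.26 (-1.32 to -1.21). Adcy8 was the exception at 0.13 (-0.32 to 0.70), from 79 and 58 reads.

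The potassium channel subunits opened by the beta-gamma complex (GIRK channels) were below 0 in 3 of 3 genes tested. Their median transcript was 3.86 kb long, and 79.1% of all genes of 3 to 4 kb were below 0. Kcnj3 was the most abundant, at 3.48 and 4.60 CPM per kb. Kcnj6 was the highest in ratio, at -0.25 (-0.49 to -0.04), and Kcnj9 the lowest, at -0.52 (-0.82 to -0.31). Kcnj5 had 3 and 5 reads and was not tested. All 5 pore subunits of voltage-gated calcium channels were below 0, with a median of -0.86, from Cacna1a at -0.36 (-0.47 to -0.26) to Cacna1b, the N-type channel, at -1.01 (-1.21 to -0.89). Cacna1d was the most abundant, at 3.67 and 6.86 CPM per kb. The tested transcripts of this list had a median length of 9.74 kb, near the edge of the class over 10 kb. All genes of 6 to 10 kb had a median ratio of -0.65, with 95.2% below 0. Those over 10 kb had a median of -0.90, with 97.1% below 0.

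Of the tyrosine phosphatases linked to somatostatin signalling, Ptpn6 was the most abundant by mean CPM per kb, though below Ptpn11 in RNAlater (16.2 against 16.8 CPM per kb), and differed least in ratio, at -0.10 (-0.19 to -0.0032), with another sign under the other 3 scalings, and Ptprj was lowest at -0.80 (-0.93 to -0.70). The receptor kinases and arrestins, which switch off and internalize active receptors, were below 0 in 6 of 6 genes. Their median transcript was 5.0 kb long, and 88.6% of all genes of 4 to 6 kb were below 0. Arrb2 stood at -0.24 (-0.35 to -0.13), Arrb1 at -1.11 (-1.29 to -1.0) and the kinase Adrbk1 (Grk2), the most abundant by mean CPM per kb though below Arrb2 in RNA-Best (12.6 against 13.0 CPM per kb), at -0.52 (-0.60 to -0.44). Of the scaffolds that bind receptor tails, 4 of 4 were below 0, from Gopc, the most abundant, at -0.47 (-0.57 to -0.37) to Shank1 at -1.52 (-1.66 to -1.43). The median transcript of the scaffolds was 8.25 kb long, and 95.2% of all genes of 6 to 10 kb were below 0, with a median of -0.65.

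The hormones held back by somatostatin, like all 7 anterior pituitary hormone genes checked, were higher in RNA-Best. Gh, Prl and Tshb, which encode growth hormone, prolactin and the thyrotropin beta subunit, kept this direction under all 4 scalings, with log2 ratios of 0.04, 0.45 and 0.73 under total counts. The counts of Gh and Prl were partly fractions, and their transcripts are short, at 862 and 895 bases, in a length class whose median ratio was 0.29, above that of Gh. The longest annotated transcript of Tshb has 4396 bases, in a length class whose median ratio was -0.40. Which form of Tshb was expressed was not examined, so its length class is uncertain.

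**Figure D5:**
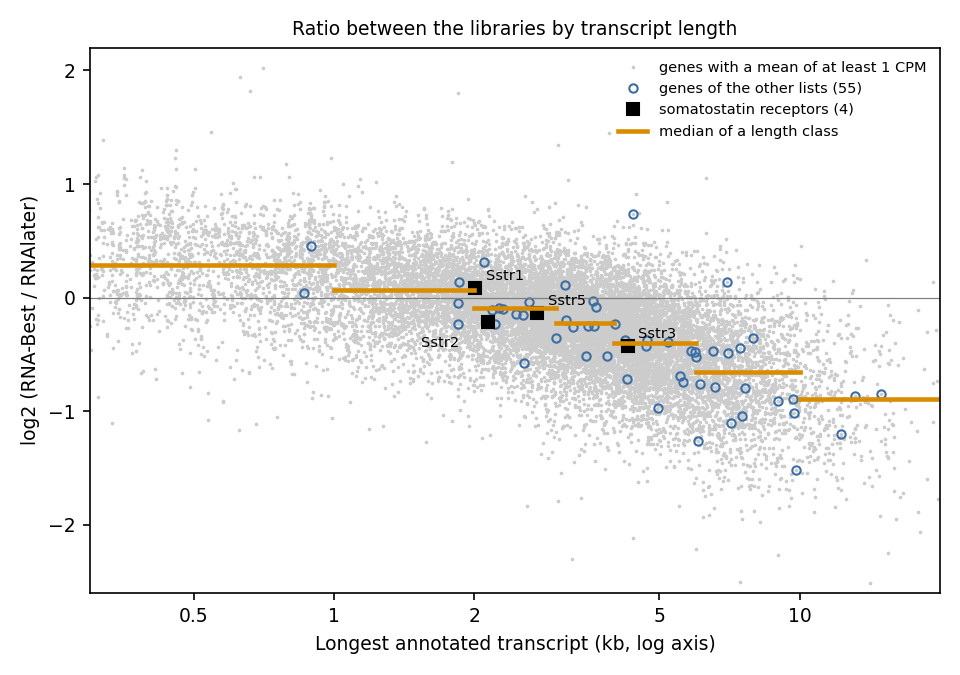
Log2 ratio (RNA-Best over RNAlater) against the length of the longest annotated transcript (kb, log axis; genes under 0.3 kb or over 20 kb are not drawn) for the genes tested (grey), the 55 genes of the other lists (open circles) and the 4 somatostatin receptors (squares), with the median of each of 7 length classes (bars). The bars step down from 0.29 to -0.90, and Sstr3 lies 0.03 below the bar of its class.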

How the data were processed

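Poly(A) RNA of 2 samples was sequenced as single reads of 51 bases, 1 library each for RNA-Best and RNAlater. The authors deposited estimated counts per gene, not normalized; the submitters' processing notes name STAR 2.5.1b, featureCounts 1.5.0-p1 and mm10, and the option that divided some reads between features and the strand setting are not given in the sources used here. Of 47069 identifiers, 46574 matched GENCODE M21 (GRCm38) with the version suffix ignored, and the other 495 held 0.0525% of RNA-Best and 0.0512% of RNAlater counts. Totals of 53915047 and 44917492 counts gave CPM. The study's voom model needs replicates and could not be fitted, so p-values are absent. Log2 ratios used a pseudocount of 0.5 CPM, which understates ratios of low genes, in genes whose mean reached 1 CPM.

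Values were rounded to integers before computing exact Poisson intervals of levels, exact conditional binomial intervals of ratios (without the pseudocount), exact conditional intervals of odds ratios (scipy 1.17.1, 95%), and the factors of edgeR 4.0.16 and DESeq2 1.42.0. Share intervals moved 1 gene's count and held the others. PCR copies are not independent molecules. A count of 0 was taken to allow 3 reads. Coding sequences were aligned globally with Biopython 1.88, from GENCODE M21 transcripts, and the stop codon was left out. The code for ratios and intervals was run on simulated counts with Poisson error only. That check does not cover variation between pools or libraries.

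Named genes were the 5 receptors, both ligands, the highest and lowest ratio and the most abundant gene (per kb) of each other list, Gh, Prl and Tshb, and for each receptor tested the 2 receptors of nearest level outside the family. The members and lists were chosen with earlier results of these data known. Kcnj5, Ptpn11 and Slc39a11 were named after their values were seen. Galr3 is not analysed here. Alternatives were other scalings, pseudocounts, filters and gene lengths.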

Additional observations from a re-analysis of the deposited data

How the results depend on the processing

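No paired analysis was possible because a single library stood for RNA-Best and another for RNAlater. Leaving out a replicate was not possible for the same reason. Under TMM, DESeq2 size factors and totals without Prl and Gh, the log2 ratio of Sstr3 was -0.26, -0.25 and -0.31, against -0.43 under total counts from the same reads. That of the summed receptors was -0.0636, -0.0519 and -0.11. The sum without Sstr3, chosen after seeing the data, gave -0.0636. Without a filter Sstr4 had -0.38, a value set mostly by the pseudocount of 0.5 CPM. Its plain ratio was 0.25 (0.0442 to 0.971) from 3 and 10 reads, and no direction is read from it. Listed genes at least 2-fold lower numbered 3 under each of the 3 scalings instead of 6. At a mean of at least 10 CPM, 31 listed genes were below 0 instead of 48. That filter kept 10497 of all genes in place of 16504 and fewer listed genes than 55, so 31 is not read as a smaller share. Of all genes, 434 (TMM) and 419 (DESeq2) were at least 2-fold lower instead of 824, and 110, 118 and, without Prl and Gh, 104 at least 2-fold higher instead of 45. Family shares depended on length. By the median transcript length, RNA-Best had 31.9% Sstr1, 39.3% Sstr3 and 20.1% Sstr5, and RNAlater 25.6%, 45.7% and 19.0%. The median for Sstr3, 2.36 kb, comes from annotated transcripts of 4275 and 448 bases, the shorter with 363 coding bases. By the coding sequence RNA-Best had 27.8% Sstr1, 6.45% Sstr2 and 39.3% Sstr3, and RNAlater 22.3%, 6.62% and 45.6%. With no length RNA-Best had 27.4% Sstr1, 6.01% Sstr2 and 42.4% Sstr3, and RNAlater 21.9%, 6.12% and 48.9%, with 0.567% Sstr4 and 22.5% Sstr5. These changes follow from the divisor. With pseudocounts of 0.1 and 1 CPM the log2 ratio of Sstr3 was -0.44 and -0.42 and that of Sstr2 -0.25 and -0.18, and every receptor tested kept its sign. Depth limits Sstr2, with 108 reads a library, and Sstr4.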
